A study of Mus musculus with 10 samples.

Results

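Umod, Slc12a1, Kcnj1, Bsnd, Cldn16 and Ptger3, which are genes of salt transport and of secreted uromodulin in the thick ascending limb of the loop of Henle, were followed across a mouse model of acute kidney injury. The 6 genes were taken by name from the 28808 gene rows of the series, and all 6 had a row in each of the 10 libraries. Their levels were measured in thick limb-like cells, and as a background in cells that should lack them. The cells were found without use of the members, although the levels still depended on how the class was drawn.

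The material was kidney cortex of mice aged 4 weeks, made into single-cell suspensions and sequenced by Drop-seq, a droplet method that captures the 3' end of each cell's RNA on a barcoded bead. Normal kidney served as the control, with a single library. The injured kidneys were known by day alone: days 1, 2 and 4 had 1 library apiece, and days 7, 11 and 14 had 2. No label named the kind of injury, the strain, the sex or the animal, so the 2 libraries of a day may be separate animals or not, and the p-values measure only the spread between those libraries.

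The thick ascending limb reabsorbs salt without water and so makes the medulla concentrated and the urine dilute. Sodium, potassium and chloride enter its cells together through the cotransporter NKCC2, encoded by Slc12a1, which is the target of loop diuretics. Potassium returns to the lumen through ROMK (Kcnj1), and chloride leaves on the blood side through ClC-K channels, which need the subunit barttin (Bsnd). The lumen-positive voltage that follows drives calcium and magnesium between the cells, through tight junctions that contain claudin 16 (Cldn16). Prostaglandin E2 acts on the limb through the EP3 receptor (Ptger3). Uromodulin (Umod) is the most abundant protein of normal urine and is made there. Loss of SLC12A1, KCNJ1 or BSND causes forms of Bartter syndrome in people.

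In the GENCODE M21 annotation of GRCm38, Umod lies on the minus strand at chr7:119462711-119479282, and Slc12a1 on the plus strand at chr2:125152505-125230002. Kcnj1 lies at chr9:32372493-32399197 and Bsnd at chr4:106483456-106492283. Cldn16 lies at chr16:26463135-26482765 and Ptger3 at chr3:157566892-157645888. These are the spans of whole protein-coding genes, with exons and introns. Of the members, 2 overlap an annotated antisense gene. The partner of Slc12a1, Gm14002, held at most 0.0584% as many counts as Slc12a1 in the thick limb-like cells of any library, and the partner of Umod, Gm44588, had no row. Whether the counting used strand is not given in the sources used here.

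The bases just before Umod and Slc12a1 are shown because most of the results below turn on these 2 genes. Both stretches come from the RefSeq promoter table on GRCm38.p6, are written 5' to 3' on the gene's own strand, and end 1 base before the annotated gene. The 230 bases before Umod are chr7:119479283-119479512 on the minus strand, and the 155 bases before Slc12a1 are chr2:125152350-125152504 on the plus strand.

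Umod: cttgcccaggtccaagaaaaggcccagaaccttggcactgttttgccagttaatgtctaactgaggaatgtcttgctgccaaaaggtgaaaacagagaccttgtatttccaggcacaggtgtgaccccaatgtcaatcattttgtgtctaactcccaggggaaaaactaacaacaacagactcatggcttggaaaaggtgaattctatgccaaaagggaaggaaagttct
Slc12a1: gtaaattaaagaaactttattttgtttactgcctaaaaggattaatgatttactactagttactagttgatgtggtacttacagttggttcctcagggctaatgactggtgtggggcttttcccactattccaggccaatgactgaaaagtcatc

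A promoter was listed for 5 of the 6 members, with none for Bsnd. The letters AAGGTCA, the site of the oestrogen-related receptors, were searched on both strands of the 250 bases before each RefSeq start. They stood in 0 of the 5 and in 4.08% of all 32851 listed promoters. This says only that these letters are not in these windows. The window of Kcnj1, chr9:32393735-32393984, lies inside the gene span given above. Those of Umod and Slc12a1 run 20 and 95 bases into the annotated genes, past the stretches printed here.

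The libraries held 7091848 to 31632205 counts, which were read as unique molecular identifiers (UMIs, 1 per captured molecule), and 64803 barcodes, of which 50158 were used as cells. Thick limb-like cells numbered 3715 in all. They were 704 in the control and 351, 212 and 314 on days 1, 2 and 4. The 2 libraries gave 219 and 325 on day 7, 417 and 352 at day 11, and 415 and 406 on day 14. These cells were named from 14 markers that include no member, such as Cldn10, Cldn19, Egf and Casr. Markers of other cell types summed, in the thick limb-like cells, to between 103 and 4204 counts per 1e6 UMIs (CPM) for proximal tubule, 35.6 and 922 for macrophages, and 4.26 and 789 for red blood cells. The 9 macrophage markers with a row summed to 96.3 CPM in the control, where C1qb, Lyz2 and Ms4a7 were at 0, and to 922 and 324 on day 7, where none was at 0. The 15 proximal markers summed to 1220 CPM in the control, 124 and 103 on day 7, and 2192 to 4204 on days 11 and 14. The 8 principal cell markers summed to 42.8 CPM in the control, 305 and 230 on day 7, and 27.1 to 66.9 on days 11 and 14. Most of their day 7 sum was Hsd11b2, which went from 19.3 CPM in the control to 243 and 187 and had a UMI in 37.4% and 31.4% of the day 7 cells, while Aqp2 stood at 8.01, 22.2 and 22.0. The 8 T or NK cell markers summed to 1.02 CPM in the control, 120 and 55.1 on day 7, mostly Ccl5, and at most 2.30 on days 11 and 14. The 7 distal convoluted tubule markers summed to 139 CPM in the control, 50.4 and 29.4 on day 7, and 91.1 to 113 on days 11 and 14, with Abca13 at 78.2 in the control and 1.48 and 2.45 on day 7, and Pvalb at 27.9, 0 and 1.22. The part of these in the results was not tested. The summed naming markers themselves stood at 15466 CPM in the control, 1368, 2585 and 4613 on days 1, 2 and 4, 2220 and 4193 on day 7, and 11963 to 13743 on days 11 and 14. Mitochondrial UMIs took 27.3% of the thick limb-like total in the control and between 4.21% and 7.35% on days 2, 4 and 7, then 17.5% and 14.5% on day 11 and 24.6% and 27.4% on day 14.

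The thick limb-like class was made of 3 clusters that held different days. Cluster 8, with 2404 cells, held most of the class in the control and on days 11 and 14. Cluster 9.3, with 1088 cells and with Slc34a2, Mt2 and Cxcl17 among its leading genes, held most of it on days 1, 4 and 7. The smallest, with 223 cells almost all from day 2, was led by the interferon-induced genes Isg15, Rsad2 and Ifit1. Comparisons between days are therefore also comparisons between these clusters.

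**Figure D1:**
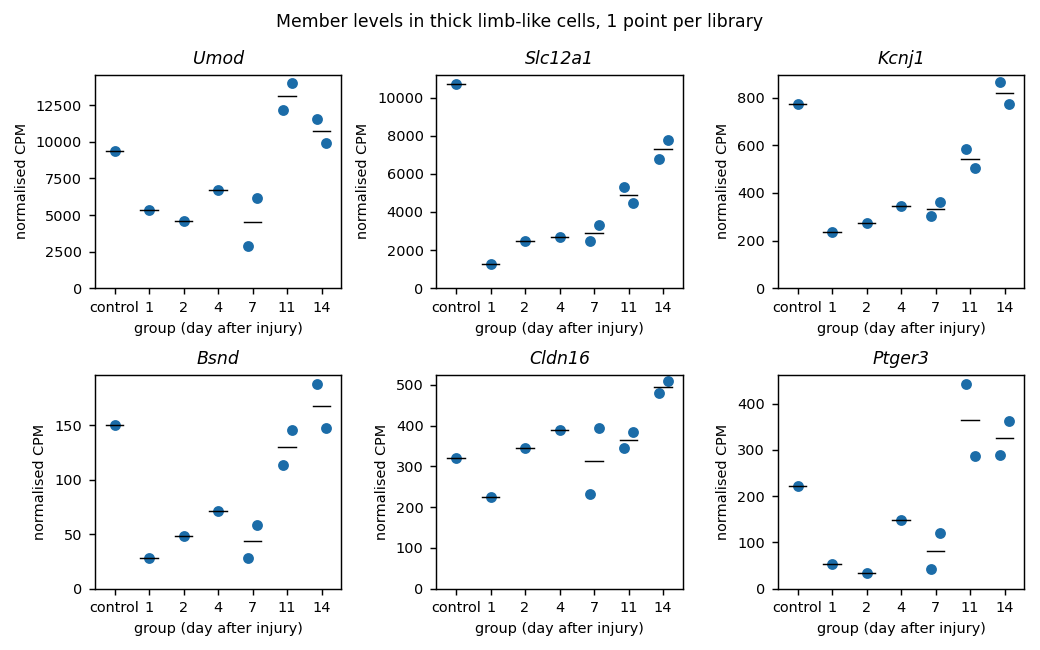
Normalised CPM (y axis, linear, from 0) of the 6 members in the summed thick limb-like cells of each library (points), by group (x axis, control and day after injury); short lines mark group means. Slc12a1 stood at 10737 in the control and at 2459 and 3336 on day 7, whereas both day 11 values of Umod, 12200 and 14042, lay above the control's 9375.

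Slc12a1, the salt entry step, had the most negative change of the 6 on day 7. On the normalised CPM scale (CPM of the class total, scaled by TMM factors), it stood at 10737 in the control and at 1280, 2470 and 2689 on days 1, 2 and 4. It stood at 2459 and 3336 in the 2 libraries of day 7, 5313 and 4446 at day 11, and 6797 and 7765 on day 14. Every injured library lay below the control, day 1 lowest, and on this scale the libraries of days 7, 11 and 14 did not overlap each other. On the plain CPM scale the libraries of day 7, 3202 and 4228, and of day 11, 4570 and 3943, did overlap. With mitochondrial UMIs left out of the total they did not. Against the control, the log2 change of day 7 was -1.89 (SE 0.22, edgeR adjusted p = 9.64e-06). On day 11 it was -1.14 (SE 0.22, edgeR adjusted p = 0.00446), and on day 14 it was -0.56, which did not pass the threshold (edgeR adjusted p = 0.228). The day 7 call held in all 18 alternatives run for it. The day 11 call was lost without day 11 replicate 2 (log2 change -1.01, edgeR adjusted p = 0.0791) and with cells picked by marker UMIs (-0.77, 0.0526).

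Umod RNA took another course. Its normalised CPM was 9375 in the control and 5330, 4576 and 6725 on days 1, 2 and 4. The day 7 libraries stood at 2872 and 6176, those of day 11 at 12200 and 14042, and those of day 14 at 11577 and 9948. All libraries of days 1 to 7 lay below the control and all of days 11 and 14 above it. Day 7 was lower than the control with a log2 change of -1.05 (SE 0.30, edgeR adjusted p = 0.0185). Neither day 11 (0.48, edgeR adjusted p = 0.346) nor day 14 (0.20, edgeR adjusted p = 0.800) passed the threshold against the control. From day 7 to day 11 Umod rose by 1.53 on the log2 scale (SE 0.26, edgeR adjusted p = 0.000272), a call kept in all 19 alternatives run for it.

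The fall of Umod on day 7 rested on choices that the fall of Slc12a1 did not. It was lost with DESeq2 (log2 change -1.02, adjusted p = 0.357), with only the 2 groups in the fit (-1.03, edgeR adjusted p = 0.164) and with library totals in place of TMM scaling (-0.40, edgeR adjusted p = 0.298). On the plain CPM scale the day 7 values, 3740 and 7829, lay on both sides of the control's 7663. Mitochondrial UMIs were 27.3% of that total in the control and 4.21% and 5.27% on day 7. With them left out of the total, both day 7 values lay below the control's.

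RNA of Kcnj1 and Bsnd, of the potassium and chloride exit steps, was also lower on day 7. Kcnj1 stood at 774.5 normalised CPM in the control, 235.4, 274.7 and 343.3 on days 1, 2 and 4, 301.6 and 363.1 on day 7, 582.9 and 506.0 at day 11, and 866.0 and 774.1 on day 14. The day 14 libraries thus stood at the control level or above on this scale, with days 1 to 7 all below day 11. On the plain CPM scale the libraries of days 7 and 11 overlapped, and with mitochondrial UMIs left out of the total they did not. Kcnj1 fell on day 7 against the control (log2 change -1.21, SE 0.22, edgeR adjusted p = 0.000567), though with library totals alone the change was -0.56 (edgeR adjusted p = 0.0522). On day 11 its change against the control was -0.51 (edgeR adjusted p = 0.150) and on day 14 0.08, neither past the threshold.

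Bsnd, the chloride channel subunit, had 149.9 normalised CPM in the control. It stood at 28.4, 47.9 and 71.2 on days 1, 2 and 4, 28.4 and 58.4 on day 7, 113.8 and 145.6 at day 11, and 188.2 and 147.6 on day 14. Its day 7 libraries overlapped neither the control nor day 11. The fall on day 7 was -1.70 on the log2 scale (SE 0.30, edgeR adjusted p = 0.000552), and on days 11 and 14 the changes were -0.22 and 0.16, neither past the threshold.

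Cldn16, of the paracellular pathway for calcium and magnesium, was the only member not called on day 7. Its normalised CPM was 321.0 in the control, 223.5, 345.7 and 389.0 on days 1, 2 and 4, 232.1 and 394.5 on day 7, 346.0 and 384.0 at day 11, and 480.2 and 510.0 on day 14. The day 7 libraries lay on both sides of the control, and the log2 change was -0.02 (SE 0.26, edgeR adjusted p = 0.974). This small change took either sign across the alternatives, from -0.47 to 0.63. On day 11 the change against the control was 0.18 (edgeR adjusted p = 0.700), and from day 7 to day 11 it was 0.20 (edgeR adjusted p = 0.535). The latter was called with members and lists in the clustering (0.60, edgeR adjusted p = 0.0384), with cells picked by marker UMIs (0.64, edgeR adjusted p = 0.0144) and without day 7 replicate 2 (0.66, edgeR adjusted p = 0.0121), but with library totals alone it was -0.35. The day 14 change of 0.62 did not pass the threshold (edgeR adjusted p = 0.251).

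Ptger3, the prostaglandin receptor, had the largest estimate of the 6 from day 7 to day 11. It stood at 222 normalised CPM in the control, 53.8, 33.8 and 148 on days 1, 2 and 4, 43.2 and 120 on day 7, 442 and 288 at day 11, and 288 and 362 on day 14. All injured libraries up to day 7 lay below the control and all later ones above it. The day 7 change of -1.36 against the control passed the threshold (SE 0.36, edgeR adjusted p = 0.0112). That call was lost with DESeq2 (adjusted p = 0.312) and with only the 2 groups in the fit (edgeR adjusted p = 0.0778), and with library totals alone (-0.72, edgeR adjusted p = 0.124). Against the control, days 11 and 14 differed by 0.72 (edgeR adjusted p = 0.220) and 0.55 (edgeR adjusted p = 0.473), neither past the threshold.

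Counted together, 5 of the 6 members were lower on day 7 than in the control and 0 higher, where 11% of the 11683 genes tested in thick limb-like sums were lower and 9.44% higher. On day 11, 1 of 6 was lower than the control, beside 6.29% of all genes lower and 4.19% higher. On day 14, 0 of 6 were called in edgeR against the control, beside 0.847% of all genes higher and 0.736% lower; 2 had an unadjusted p under 0.05, Slc12a1 and Cldn16, and DESeq2 called 0. From day 7 to day 11, 5 of 6 rose, beside 15.5% of all genes higher and 12% lower. The changes were 0.75 for Slc12a1 (SE 0.19, edgeR adjusted p = 0.00727), 0.71 for Kcnj1 (SE 0.19, edgeR adjusted p = 0.00956), 1.48 for Bsnd (SE 0.28, edgeR adjusted p = 0.000683) and 2.08 for Ptger3 (SE 0.32, edgeR adjusted p = 0.000109). Without day 11 replicate 1 the calls of Slc12a1 (0.62, edgeR adjusted p = 0.0900) and Kcnj1 (0.60, edgeR adjusted p = 0.102) were lost. With library totals alone both were lost too, at 0.19 (edgeR adjusted p = 0.411) and 0.15 (edgeR adjusted p = 0.535). From day 11 to day 14, 0 of 6 were called in edgeR, beside 2.28% of all genes higher and 4.04% lower, with changes of 0.58 for Slc12a1 (edgeR adjusted p = 0.0877) and 0.59 for Kcnj1 (edgeR adjusted p = 0.0678), both with an unadjusted p under 0.05, and DESeq2 called 0. The other changes were -0.29 for Umod, 0.38 for Bsnd, 0.44 for Cldn16 and -0.17 for Ptger3, with edgeR adjusted p between 0.283 and 0.826. With cells picked by marker UMIs, where 1921 genes were called in place of 738, Umod was lower at -1.01 (edgeR adjusted p = 0.00844) and Ptger3 at -0.95 (edgeR adjusted p = 0.0466). Without either library of day 7, whose 2 libraries lay far apart for Umod and Ptger3, the spread came from fewer days and more members passed: 4 on day 11 and 2 on day 14 when set against the control, and 3 from day 11 to day 14. The genes called rose with them, from 1224 to 2139 and 2142 on day 11, from 185 to 728 and 757 on day 14, and from 738 to 1177 and 1188 from day 11 to day 14, so the members' gain is not set apart from that of all genes. The comparisons of day 7 with the control and with day 11 share the day 7 libraries, so their opposite signs are not independent.

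**Figure D2:**
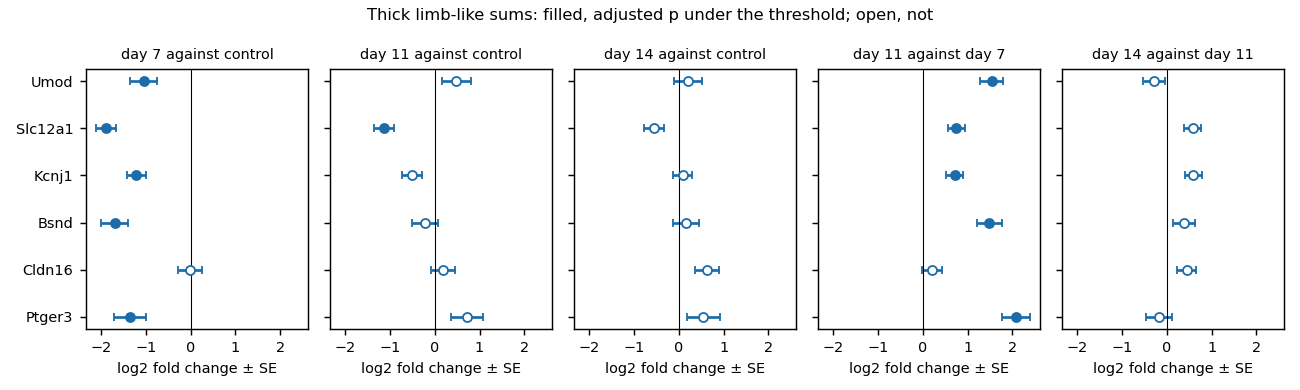
Log2 change of each member with its standard error, for each comparison of thick limb-like sums; filled points passed the adjusted p threshold. Slc12a1 has the most negative value on day 7, -1.89, and Cldn16 lies near 0.

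How the class was drawn weighed on these calls. If the mixed clusters are left whole, all 1088 cells of cluster 9.3 drop out of the thick limb-like class. The first library of day 7 then has 17 such cells and leaves the fit, so that day 7 rests on 45 cells of the second library alone, and both the cells and the replicates differ from those above. With this class 182 genes in all were called on day 7 against the control, where the class above gave 2385, and 348 in place of 3203 from day 7 to day 11. Of the 6 members 1 was called on day 7 against the control, Slc12a1 at -0.94 (edgeR adjusted p = 0.0101), while Umod stood at -0.25 (edgeR adjusted p = 0.542), Kcnj1 at -0.45, Bsnd at -0.24 and Ptger3 at 0.13. From day 7 to day 11, 1 of 6 was called, Umod at 0.68 (edgeR adjusted p = 0.0218). The rises of 3 others turned, to -0.26 for Slc12a1 (edgeR adjusted p = 0.442), -0.12 for Kcnj1 (edgeR adjusted p = 0.805) and -0.048 for Bsnd (edgeR adjusted p = 0.969), Cldn16 stood at -0.20 and Ptger3 at 0.53, neither past the threshold. The split between clusters was chosen after seeing the data, and this alternative was added then too.

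Within the 3 libraries where both clusters had at least 15 cells, cluster 9.3 held less RNA of 5 members than cluster 8. These values are plain CPM and a description without a test, since cells of a library are not replicates. Both clusters were drawn from the expression of other genes in these same cells. The share of all genes lower in cluster 9.3 was not counted, so the 5 members are not set apart from it. Slc12a1 stood at 5271 in cluster 8 and 2425 in cluster 9.3 on day 4, at 7965 and 3004 in the first library of day 7, and at 7027 and 3948 in the second. Umod stood at 12017 and 6453, 7764 and 3571, and 9993 and 7622 in the same order. Cluster 9.3 thus kept between 37.7% and 56.2% of the Slc12a1 level of cluster 8, and between 46.0% and 76.3% of its Umod level. The shares were 46.3% to 61.6% for Kcnj1, 32.5% to 62.8% for Bsnd and 24.8% to 45.8% for Ptger3. For Cldn16 they were 81.5% to 102%, the narrowest gap of the 6. In the first library of day 7, cluster 8 had 15 cells only.

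**Figure D3:**
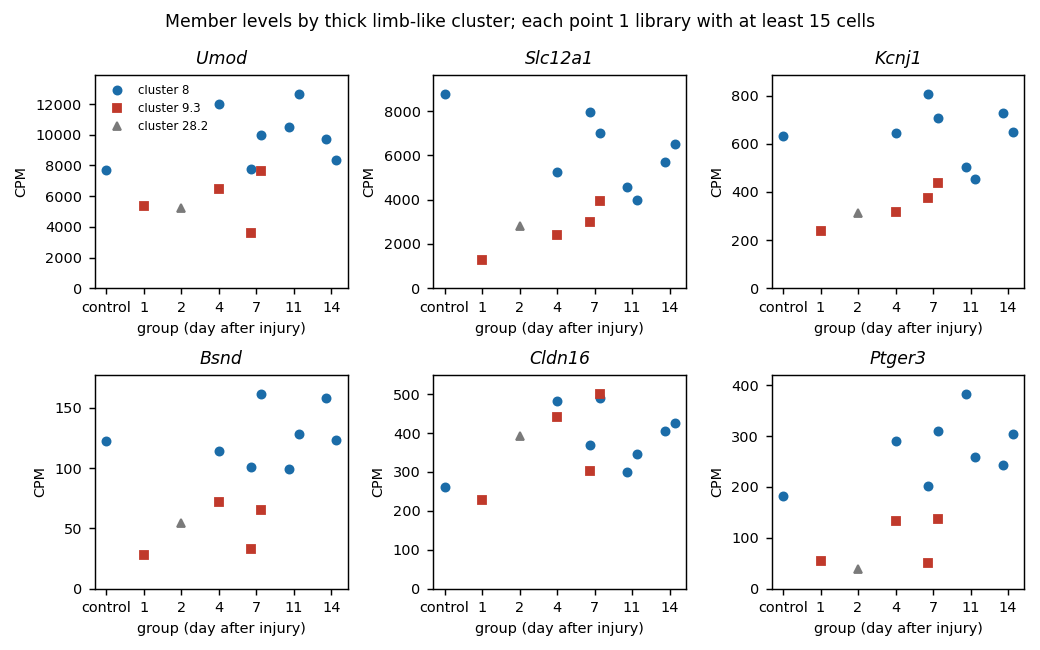
Plain CPM (y axis, linear, from 0) of the members by group (x axis) in each thick limb-like cluster, with 1 point per library that had at least 15 cells of the cluster. Cluster 9.3 (squares) lies below cluster 8 (circles) in the same library for 5 members, and meets it for Cldn16 at 500 against 491 in the second day 7 library.

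Shares of thick limb-like cells with a UMI of Slc12a1 or Umod were also taken. After each cell was thinned to 500 UMIs, Slc12a1 was detected in 96.9% of control cells, and in 39.3%, 48.9% and 61.8% of those of days 1, 2 and 4. The shares were 57.7% and 70.4% on day 7, 85.8% and 80.9% at day 11, and 89.4% and 92.8% on day 14. Umod was detected in 92.0% of control cells, 81.6%, 63.4% and 82.6% on days 1, 2 and 4, 65.0% and 83.9% on day 7, and at least 90.7% in each library of days 11 and 14. On day 1, 47.6% of the thinned cells had Umod without Slc12a1 and 5.1% had Slc12a1 without Umod, whereas in the control these were 1.4% and 8.1%. In non-epithelial-like cells, which should lack both genes, the thinned share on day 1 was 16.3% for Umod and 5.24% for Slc12a1, and in the control 8.63% and 6.38%. Median depth before thinning was 2056 UMIs in thick limb-like and 1145 in non-epithelial-like cells on day 1, and 4055 and 1430 in the control. Without thinning, 99.4% of the deeper control cells had a Umod UMI.

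Expressed as 1 number, Umod made up 46.6% of the Umod and Slc12a1 UMIs in control thick limb-like cells (95% exact binomial interval 46.3% to 46.9%, counting error only). Its share was 80.6%, 64.9% and 71.4% on days 1, 2 and 4, 53.9% and 64.9% on day 7, 69.7% and 76.0% at day 11, and 63.0% and 56.2% on day 14. The share of Umod was thus above that of the control library in all 9 injured libraries. With 1 control library this difference has no replicate check on the control side.

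**Figure D4:**
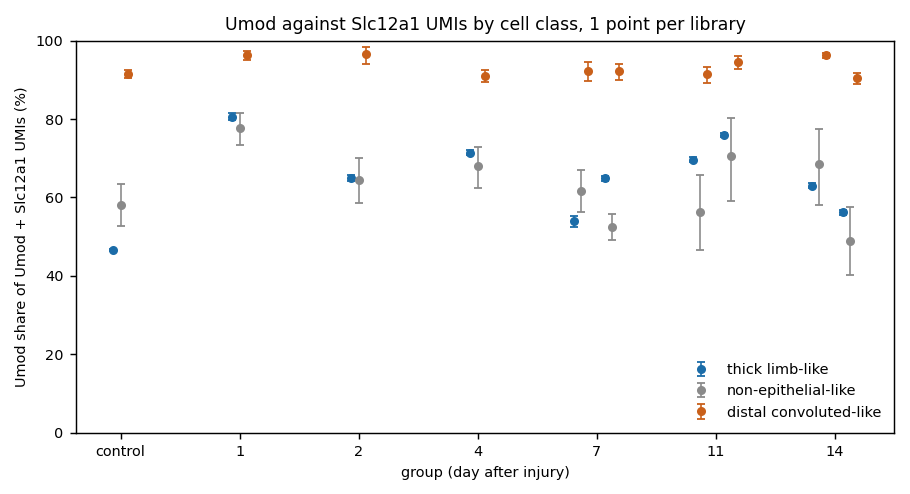
Share of Umod among Umod plus Slc12a1 UMIs (y axis, percent) by group (x axis), in thick limb-like, non-epithelial-like and distal convoluted-like cells; bars are 95% exact binomial intervals. Distal convoluted-like cells stay between 90.4% and 96.7%, while the non-epithelial-like interval holds the thick limb-like value in 6 of 10 libraries.

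UMIs of the members were also found in cells that should lack them. Whether these came from free RNA, doublets or misassigned cells was not tested. The macrophage-, neutrophil-, T or NK-, B-, endothelial- and stromal-like cells of each library were summed as non-epithelial-like cells. Their Umod level was 174 plain CPM in the control, 316, 93.8 and 103 on days 1, 2 and 4, 97.2 and 101 on day 7, 70.9 and 93.6 at day 11, and 114 and 147 on day 14. Day 1 was highest, and the median was 1.55% of the thick limb-like level (0.676% to 5.91%). Slc12a1 stood there at a median of 1.70% of its thick limb-like level (0.923% to 7.09%), Cldn16 at 1.56% (0% to 8.70%) and Ptger3 at 2.46% (0% to 6.88%). The medians were higher for Kcnj1, at 4.29% (1.35% to 15.3%), and for Bsnd, at 3.73% (0.964% to 22.8%). The Umod share of Umod and Slc12a1 UMIs in non-epithelial-like cells ran from 48.9% to 77.6%, and its interval held the thick limb-like value of the same library in 6 of 10 libraries and not in the other 4.

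Tested over libraries, the background level of Umod in non-epithelial-like sums fell from the control to day 7, with a log2 change of -0.84 (SE 0.27, edgeR adjusted p = 0.0291). Of the 11963 genes tested there, 12.4% were higher and 13.9% lower. This call was lost in 4 of 11 alternatives. These were DESeq2, no filter on low counts, and either day 7 library left out. The log2 change was -0.72 without day 7 replicate 1 and -0.88 without replicate 2. Slc12a1 (-0.73, edgeR adjusted p = 0.203), Kcnj1 (-0.17, edgeR adjusted p = 0.792) and Cldn16 (1.496, edgeR adjusted p = 0.259) were not called, and Bsnd and Ptger3 were too low to be tested. From day 7 to day 11, Kcnj1 was lower (-1.22, edgeR adjusted p = 0.0363), a call lost in 4 of 11 alternatives, where 13.9% of genes were higher and 13.7% lower. Umod (-0.21), Slc12a1 (-0.61) and Cldn16 (-1.81, edgeR adjusted p = 0.132) were not called there. Against the control on day 14, 0 of the 4 members tested were called in edgeR, beside 0.476% of all genes higher and 0.903% lower, and 0 had an unadjusted p under 0.05; DESeq2 called 0 too. These stood at -0.52 for Umod, -0.41 for Slc12a1, -0.49 for Kcnj1 and 0.48 for Cldn16. The make-up of the summed class also changed. Macrophage-like cells were 50 of its 624 cells in the control, and 1047 of 1393 and 1579 of 2390 on day 7. On day 11 they were 128 of 623 and 80 of 415. Over libraries, the median Umod level was 81.4 plain CPM in macrophage-like and 193 in stromal-like cells. A change in this mix and a change in background level cannot be told apart in these sums. Within single classes, macrophage-like cells held 22 Umod UMIs of 69236 in the control. On day 7 they held 129 of 1619858 and 181 of 3339649, a lower level. Endothelial-like cells held 93 of 550601 in the control, and 22 of 208056 and 37 of 451778 on day 7, also lower. The other classes are not set out here by day, and these class levels were not tested.

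Distal convoluted-like cells, the next segment of the nephron, carried Umod well above this background. Their Umod level was 1164 plain CPM in the control, 1642, 856 and 1401 on days 1, 2 and 4, 1038 and 1092 on day 7, 1394 and 1536 at day 11, and 2051 and 1428 on day 14. The median was 16.9% of the thick limb-like level (12.3% to 30.7%). Slc12a1 stood there at a median of 2.31% of its thick limb-like level, near its share in non-epithelial-like cells. Umod made up 90.4% to 96.7% of the Umod and Slc12a1 UMIs, and in 10 of 10 libraries the interval of this share did not hold the thick limb-like value.

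**Figure D5:**
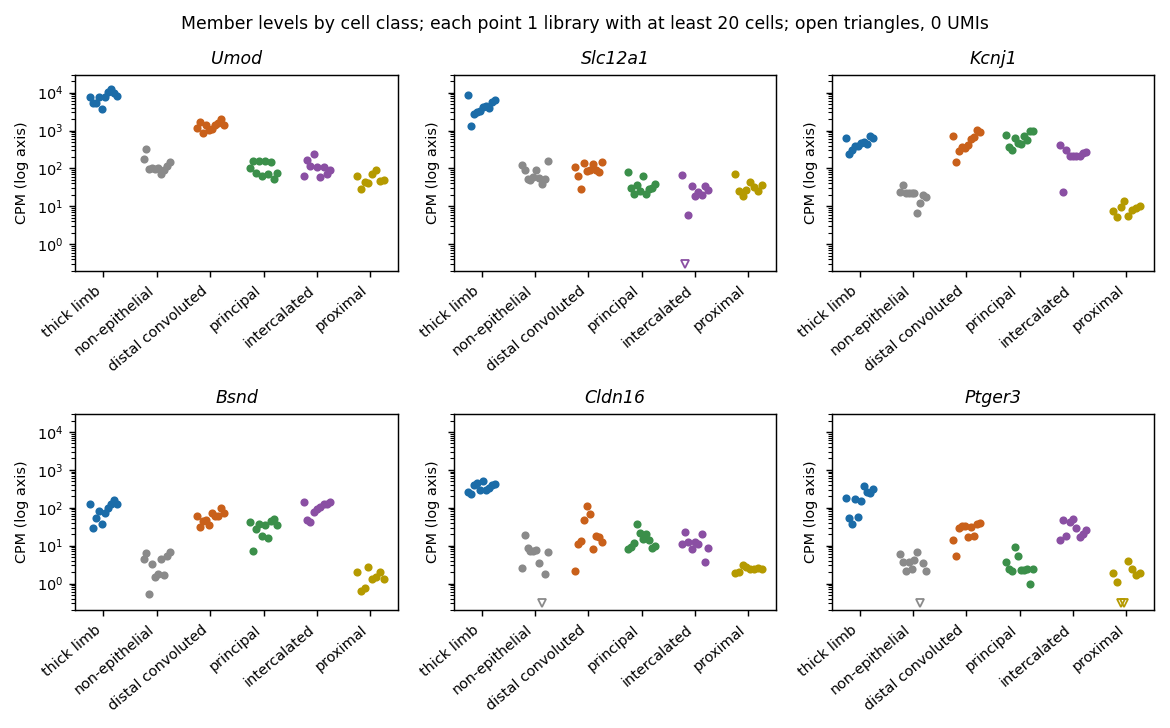
Level of each member (plain CPM, log axis) by cell class, with 1 point per library. Umod and Slc12a1 are highest in thick limb-like cells, whereas Kcnj1 and Bsnd reach like levels in other distal classes.

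Kcnj1 and Bsnd were not limited to the thick limb-like class. Kcnj1 stood at a median of 127% of its thick limb-like level in principal-like cells (93.7% to 159%) and 105% in distal convoluted-like cells (63.7% to 151%), the segments in which ROMK also secretes potassium. In intercalated-like cells it stood at 44.9% (0% to 97.8%). Bsnd stood at 109% in intercalated-like cells (77.1% to 164%), at 62.1% in distal convoluted-like and at 34.8% in principal-like cells. The 164% came from day 1, which had 20 intercalated-like cells, and the first library of day 7 had 10. Tubular cells of no named segment were 7.16% of used cells in the control and 50.7% and 56.7% on days 1 and 4. On day 7 they were 34.2% and 23.3%. Their median Kcnj1 level was 36.4 plain CPM, but they held 28.4% of the library's Kcnj1 UMIs on day 4 and 0.421% in the control. Of Umod and Slc12a1 UMIs they held 12.7% and 13.5% in the first library of day 7, and 3.86% and 4.36% in the second. In the control these were 0.185% and 0.164%. Their part was not tested. Cldn16 (4.53%) and Ptger3 (12.0%) had lower median levels in distal convoluted-like cells, with ranges of 0.828% to 36.1% and 7.15% to 76.8%. In intercalated-like cells they stood at 2.86% (0% to 10.4%) and 8.63% (0% to 86.5%).

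Summed over all used cells, as a piece of tissue would be, all 6 members were lower on day 7 than in the control, beside 18.9% of the 17408 genes tested lower and 17.9% higher. In such sums, fewer cells of a type and less RNA per cell cannot be told apart. Slc12a1 fell by 2.76 on the log2 scale (SE 0.27, edgeR adjusted p = 1.95e-05), from 2301 normalised CPM in the control to 296 and 381. Umod fell by 1.92 (SE 0.29, edgeR adjusted p = 0.000405), from 2124 to 408.9 and 716.5. Bsnd (-2.01), Ptger3 (-1.94), Kcnj1 (-1.37) and Cldn16 (-0.70, edgeR adjusted p = 0.0201) were lower by less than Slc12a1. The call of Cldn16 was lost with only the 2 groups in the fit (edgeR adjusted p = 0.0775), without day 7 replicate 1 (edgeR adjusted p = 0.0537) and with library totals alone (0.012, edgeR adjusted p = 0.964). Its plain CPM, 53.5 and 62.1 on day 7, lay on both sides of the control's 57.5. Mitochondrial UMIs were 23.7% of the total in the control and 4.12% and 5.22% on day 7. With them left out of the total, both day 7 values lay below the control's. Thick limb-like cells were 12.1% of used cells in the control, and 6.37% and 6.64% on day 7. This drop depended on how the class was drawn. In place of 704 cells in the control and 219 and 325 on day 7, there were 703, 365 and 467 at Leiden resolution 2. With members and lists in the clustering there were 707, 400 and 518. Used cells numbered 5827, 3440 and 4896 in these libraries, so in both settings the day 7 shares of used cells lay nearer the control's. Mixed clusters left whole gave 702, 17 and 45. A mitochondrial limit of 25%, which also leaves out other cells, gave 153, 236 and 333, with day 7 above the control.

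In the same sums, 4 of 6 members rose from day 7 to day 11, beside 22% of all genes higher and 22.3% lower. They were Umod (1.87), Slc12a1 (1.16), Bsnd (1.18) and Ptger3 (2.17), whereas Kcnj1 (0.43, edgeR adjusted p = 0.0588) and Cldn16 (0.41, edgeR adjusted p = 0.0757) did not pass the threshold. Cldn16 was called without day 7 replicate 2 (0.55, edgeR adjusted p = 0.0402). With library totals alone the calls of Slc12a1 (0.51, edgeR adjusted p = 0.0733) and Bsnd (0.53, edgeR adjusted p = 0.0605) were lost. On day 14, 1 of 6 was still lower than the control, Slc12a1 at -1.55 (SE 0.27, edgeR adjusted p = 0.0102), beside 3.25% of all genes lower and 4.2% higher. That call was lost without day 14 replicate 1 (-1.39, edgeR adjusted p = 0.0512). The others, not called, stood at -0.70 for Umod, -0.63 for Bsnd, -0.37 for Ptger3, -0.35 for Cldn16 and -0.21 for Kcnj1, with edgeR adjusted p between 0.144 and 0.558. Thick limb-like cells were 6.29% and 6.91% of used cells on day 14.

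Other genes of thick limb transport were read from a list of 45, of which 43 could be tested in thick limb-like sums. On day 7 against the control, 3 were higher and 13 lower, beside 9.44% and 11% of all genes, with a list median of -0.38 where the median of all genes was -0.00. The kinase Wnk1, which acts on NKCC2 through SPAK and OSR1, had 502.8 normalised CPM in the control and 66.0 and 74.4 on day 7 (log2 change -2.83, edgeR adjusted p = 1.01e-06). The nuclear receptor gene Esrrb had 45.2, and 8.0 and 7.7 on day 7 (-2.52, edgeR adjusted p = 4.7e-05). Slc9a3, the apical sodium-proton exchanger NHE3, also fell (-2.58, edgeR adjusted p = 0.0133), from 8.5 to 2.3 and 1.0. Both of these Slc9a3 levels of day 7 lay under the counting floor of 3 UMIs. Over the same libraries the proximal marker sum in these cells went from 1220 CPM to 124 and 103, and its part was not tested. Among those that rose, the tight junction gene Cldn3 had 21.5 in the control and 162.7 and 189.8 on day 7 (3.04, edgeR adjusted p = 1.69e-06). Maged2, which promotes NKCC2 at the cell surface in the fetal kidney, rose by 1.30 (edgeR adjusted p = 0.00609) and Pappa2 by 1.90 (edgeR adjusted p = 0.00348).

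By day 11, 1 of the 43 was higher than the control, Cldn3 (1.55, edgeR adjusted p = 0.00420), and 7 were lower, beside 4.19% and 6.29% of all genes, with a list median of -0.31 beside 0.07 for all genes. The largest falls were those of the basolateral cotransporter Slc12a2 (-1.42), the endoplasmic reticulum chaperone Hspa5 (-1.38) and the kinase Oxsr1, which is OSR1 (-1.35). From day 7 to day 11, 12 rose and 9 fell, beside 15.5% and 12% of all genes, led by Slc9a3 (3.13), Esrrb (2.61) and the potassium channel subunit Kcnj15 (2.38) among those that rose. The rise of Slc9a3 started from day 7 levels under the counting floor. Those that fell included Nos1 (-2.49), Pappa2 (-2.06) and Calcr, the calcitonin receptor, which had 6 UMIs in each day 7 library and 0 in both of day 11. The list median was -0.10 and that of all genes -0.04. From day 11 to day 14, 8 rose, led by Nos1 (3.87), Pappa2 (3.46) and Slc9a2 (1.21), and 2 fell, Fxyd2 (-1.19) and Hpn (-1.12), beside 2.28% and 4.04% of all genes and list and all-gene medians of 0.32 and 0.01. Against the control on day 14, 2 were higher, Pappa2 (3.30, edgeR adjusted p = 0.000274) and Nos1 (2.91, edgeR adjusted p = 0.0202), and 0 were lower, beside 0.847% and 0.736% of all genes, with medians of 0.01 and 0.03.

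Nos1 and Pappa2 mark the macula densa, a few cells at the end of the thick limb that sense salt. Between 3 and 11 thick limb-like cells per library held a UMI of either gene. In the first library of day 14, 7 such cells held Umod at 2574 plain CPM, against 10100 in the other 408 cells. In the second, 8 cells held it at 633 against 8532. Slc12a1 stood at 5868 and 7639 in these cells, against 5713 and 6444 in the others. Other days were mixed: over all 10 libraries, Umod was lower in such cells in 8 and higher in 2, day 2 (6895 against 4962) and the second of day 7 (7899 against 7823), and Slc12a1 was lower in 5 and higher in 5. These cells were deeper than the rest, and were chosen by the 2 genes after their change was seen.

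Markers of tubule injury moved in the thick limb-like cells over the same days. Of a list of 15, 14 were higher on day 7 than in the control and 0 lower, beside 9.44% and 11% of all genes, with a list median of 3.43 where that of all genes was -0.00. On day 11 and day 14 the numbers higher were 9 and 1, the latter Lcn2 (1.99), beside 4.19% and 0.847% of all genes, with list medians of 1.38 and 0.14 where those of all genes were 0.07 and 0.03. From day 7 to day 11, 12 fell, beside 12% of all genes, with a list median of -1.89 where that of all genes was -0.04. Lcn2, which encodes the urinary injury marker NGAL, stood at 5.4 normalised CPM in the control, 2007, 1220 and 1509 on days 1, 2 and 4, 1226 and 1403 on day 7, 95.7 and 80.1 at day 11, and 19.3 and 24.3 on day 14. It was thus high in the libraries in which Slc12a1 was low. Havcr1 had 0 UMIs in control thick limb-like cells and 79 and 21 on day 7. The part of these changes in those of the members was not tested.

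Over 113 sums of a cell class in a library, the genes whose log2 level ran most like that of Umod were Cldn16 (Pearson r 0.85), Slc12a1 (0.83), Ppp1r1a (0.83), Kng2 (0.82) and Kng1 (0.82), among 6992 genes. Those most like Slc12a1 were Umod (0.83), Cldn16 (0.82), Tmem207 (0.80), Egfl6 (0.79) and Defb42 (0.78). Ppp1r1a and Tmem207 were among the markers that named the thick limb-like class. The sums of a library share its suspension and its depth, so these values describe likeness only.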

How the data were processed

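Single-cell suspensions of 10 libraries were processed by Drop-seq per the labels' protocols. The submitters' processing notes name Bowtie2 2.2.7 and mm10. The counter, annotation and filters are not given in the sources used here. The deposited values are whole-number counts per gene symbol and barcode, made by the authors, and were read as UMIs.

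Barcodes under 500 UMIs or 500 genes, or over 50% mitochondrial UMIs, were left out. Scrublet's own threshold marked at most 0.111% of a library's barcodes, so the highest 5% of scores per library were left out as doublets. At most 11 barcodes were shared by any 2 libraries. Cells were clustered with scanpy 1.11.5 and Leiden (2000 variable genes, 30 components, 20 neighbours, resolution 1), without the members, both gene lists and mitochondrial genes. Clusters were named from fixed markers. Clusters with raised markers of a second class were clustered again, and red blood cells were named only with Alas2, rules chosen after seeing the data.

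UMIs were summed per library and class and tested with edgeR 4.0.16 (quasi-likelihood, TMM, filterByExpr, Benjamini-Hochberg over all genes tested, threshold 0.05). The fit had 1 term per group and 3 residual degrees of freedom, all from days 7, 11 and 14, so single libraries are assumed to vary like these. Days 1, 2 and 4 were not tested. DESeq2 1.42.0, other scalings, filters and cell choices were alternatives. In simulated day 7 against control counts of 10819 genes, 61.5% of 4-fold and 4.17% of 2-fold changes were called, and 0.0188% of unchanged genes. The same spread was set by hand for every simulated gene and was not estimated from these data. These shares therefore do not give the power or the false calls of the tests above. Intervals and floors cover counting error only. All members were named in every comparison, and from the list of transport genes the 3 largest changes past the threshold in each direction in thick limb-like sums. Members and lists were chosen with earlier results of these data known. Same-numbered libraries of 2 days did not deviate together (r 0.0742, -0.0555 and -0.0465 over 10510 genes).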

Additional observations from a re-analysis of the deposited data

Results flagged for a closer look

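The day 11 libraries were the only ones with barcodes of under 500 detected genes, 5362 and 5424 of them, which entered no cluster and no test. Umod stood at 486.9 and 438.9 plain CPM in these barcodes, and Slc12a1 at 220.7 and 158.4. The control held no such barcodes. These levels were above those of the non-epithelial-like cells of the same libraries, which were 70.9 and 93.6 for Umod, and far below those of thick limb-like cells. What these barcodes hold was not tested.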

How the results depend on the processing

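Of 878 alternative values for single members, 779 kept their direction and their side of the threshold, and of 341 alternative values for counts and medians, 105 moved. Counts below are genes called in edgeR unless DESeq2 is named. Some settings use fewer samples or other cells, and the cause of each shift was not tested. In thick limb-like sums, where day 7 against the control gave 2385 genes and 5 of the 6 members, DESeq2 gave 992 and 3, only the groups compared 1284 and 3, library totals alone 4272 and 2, and mixed clusters not clustered again 182 and 1. Cells picked by marker UMIs gave 3962 genes. With library totals alone the median of all genes moved from -0.00 to 0.65 and the split from 1103 higher and 1282 lower to 3745 and 527. For day 11 against day 7 (3203 genes, 5 members), DESeq2 gave 1649 genes, mixed clusters not clustered again 348 and 1 member, members and lists in the clustering 3731 and 6 members, marker-picked cells 4749 and 6, and library totals alone 4787 and 3 members, with the split moving from 1806 higher and 1397 lower to 861 and 3926 and the median from -0.04 to -0.60.

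For day 11 against the control (1224 genes, 1 member), DESeq2 gave 347 genes, only the groups compared 2112 and 3 members, mixed clusters not clustered again 2001 and 2 members, and marker-picked cells 1650 and 0 members. For day 14 against the control (185 genes, 0 members), DESeq2 gave 52, no filter on low counts 540, only the groups compared 1720 and 3 members, mixed clusters not clustered again 748 and 1 member, marker-picked cells 260 and 1 member, members and lists used in the clustering 281, Leiden resolution 2 285, and a mitochondrial limit of 25% 101. For day 14 against day 11 (738 genes, 0 members), DESeq2 gave 416, no filter 951 and 1 member, only the groups compared 1213 and 3 members, mixed clusters not clustered again 1112 and 2 members, marker-picked cells 1921 and 2 members, and members in the clustering 830 and 1 member.

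In all-cell sums, day 14 against the control (1298 genes, 1 member) gave 2520 genes and 2 members without a filter, and 3638 and 3 with only the groups compared. Day 11 against day 7 (7705 genes, 4 members) gave 10154 genes and 2 members, Umod and Ptger3, with library totals alone, and day 7 against the control moved from 3119 higher and 3287 lower to 7575 and 1402, with a median of 0.74. In non-epithelial-like sums, DESeq2 gave 1517 genes for day 7 against the control (main 3139) and 1679 for day 11 against day 7 (main 3307), with 0 members in both. Without a filter 3343 genes and 0 members were called on day 7. Day 14 against the control (165 genes) gave 83 with DESeq2, 461 without a filter and 836 with only the groups compared.

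Leaving out 1 library at a time, thick limb-like counts ran from 239 to 2142 genes and 0 to 4 members (day 11 against the control), 1867 to 3331 and 3 to 6 (day 11 against day 7), 48 to 757 and 0 to 2 (day 14 against the control), and 175 to 1188 and 0 to 3 (day 14 against day 11). All-cell counts for day 14 ran from 332 to 2003 and 0 to 2 members. Non-epithelial-like counts ran from 1886 to 3359 (day 11 against day 7, 0 to 1 members) and 61 to 262 (day 14), with 0 to 1 members on day 7.

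Signs turned as follows, on the log2 scale, for changes that were mostly small. With mixed clusters not clustered again, day 11 against day 7 gave -0.048 for Bsnd, -0.20 for Cldn16, -0.12 for Kcnj1 and -0.26 for Slc12a1. Day 7 against the control then gave 0.33 for Cldn16 and 0.13 for Ptger3, and day 14 gave -0.0052 for Kcnj1. Marker-picked cells gave -0.25 for Bsnd and -0.20 for Umod on day 14 against the control, and -0.21 for Bsnd, -0.42 for Cldn16 and -0.29 for Slc12a1 against day 11. Library totals alone gave, for Cldn16, 0.63 on day 7 and -0.35 from day 7 to 11 in thick limb-like sums, and 0.012 and -0.24 in all-cell sums, where Kcnj1 stood at -0.22 from day 7 to 11. Cldn16 on day 7 stood at 0.0099 with DESeq2 size factors, 0.0044 with the DESeq2 test and 0.021 with high doublet scores kept. Without a filter Kcnj1 on day 14 stood at -0.00087. Leaving out 1 library at a time gave ranges that crossed 0: in thick limb-like sums, -0.022 to 0.33 for Bsnd and -3.1e-05 to 0.16 for Kcnj1 (day 14 against the control), -0.47 to 0.30 (day 7 against the control) and -0.12 to 0.66 (day 11 against day 7) for Cldn16, and -0.45 to 0.18 for Ptger3 (day 14 against day 11). In non-epithelial-like sums on day 14 they were -1.37 to 0.21 for Slc12a1 and -0.66 to 1.24 for Cldn16.

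Marker-picked cells numbered 9051 in place of 3715, and their median plain CPM over libraries was 2439 for Umod, 1286 for Slc12a1, 357 for Kcnj1, 45.0 for Bsnd, 124 for Cldn16 and 57.9 for Ptger3, against 7821, 4086, 454, 90.3, 366 and 177. The median of Slc12a1 was 3419 with members and lists in the clustering and 3456 at Leiden resolution 2, and a mitochondrial limit of 25% left 2456 thick limb-like cells. With a replicate block, 3249 genes and 5 members were called for day 11 against day 7, and 821 genes and 0 members for day 14 against day 11, and no member's call changed; same-numbered libraries did not deviate together. Depth limits Bsnd and Ptger3, which were too low to test in non-epithelial-like sums.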
